A study of Mus musculus with 4 samples.

Results

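The genes described here encode the machinery that sets the pH of endosomes and lysosomes in liver macrophages: the vacuolar proton pump (Atp6v0, Atp6v1 and Atp6ap genes), the sodium-proton exchangers (Slc9a genes) with their scaffolds, and the chloride-proton exchangers and chloride channels (Clcn genes). They were picked by a rule on gene symbols, with pseudogenes and antisense genes left out, and number 41 of the 29247 genes in the count table. The rule was set with earlier results of these data known. RNA was sequenced from flow-sorted liver macrophages of 8-week-old C57BL6J mice. The treated group has 3 libraries of Cxcr4+ macrophages collected 72 h after acetaminophen (APAP, 300 mg/kg, given i.p.), and the other group is 1 library of control macrophages. No genotype other than the strain is given for either group. A Cxcr4+ gate is labelled for the APAP group alone and no gate is described for the control, so treatment and sort cannot be told apart. Nothing in the labels ties the libraries to separate animals, and the p-values therefore cover only the spread among these samples, possibly a technical one.

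The vacuolar proton pump is a rotary machine of 2 sectors. The V1 sector lies in the cytosol and hydrolyses ATP, and the V0 sector spans the membrane and carries protons into the lumen. In a macrophage this acid activates the hydrolases that digest engulfed cells and microbes. Chloride-proton exchangers of the Clcn family bring in chloride as counter-charge, and the organelle sodium-proton exchangers let protons leak back out, so the pH of a compartment depends on all of them. The pump, Clcn7 and other lysosomal genes share a promoter element bound by transcription factors of the MiT family (Tfeb, Tfe3, Mitf).

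Levels are in CPM, the read count scaled to a common library total after trimmed-mean (TMM) normalization. Total counts were 48282283, 52043418 and 56702837 in APAP libraries 1, 2 and 3 and 49950909 in the control. The control stood apart in that 18793 genes had reads in it, against 23376 to 23880 in the APAP libraries. All 8 Kupffer cell and macrophage markers were present in every library. Their sum was 25258 to 30458 CPM with APAP and 45434 CPM in the control. Of the 8 markers 6 fell and 0 rose, where 25.4% of all genes tested were higher and 18.9% lower. The same shares over all genes stand beside the marker counts below. Clec4f, Timd4 and Vsig4, which mark the resident Kupffer cells, fell by 1.77, 1.70 and 1.38 on the log2 scale and were also called lower after correction for transcript length and GC content. After that correction 5 of the 8 markers were lower and 1, Lyz2, was higher (0.87). Cd5l (-0.33) and Cd68 (0.03) were then no longer called. Markers of other cells differed between the groups. The summed level of 4 hepatocyte markers was 216 to 346 CPM in the APAP libraries, against 715 CPM in the control, and all 4 fell. The sum of 4 endothelial markers was 809 to 1205 CPM against 1844 CPM (3 of 4 fell), and that of 4 B cell markers 144 to 211 CPM against 86.4 CPM (3 of 4 rose). For 4 neutrophil markers it was 9.04 to 46.9 CPM against 4.85 CPM, with 2 of these at 0 counts in the control. Only 2 neutrophil markers had enough reads to be tested, and 0 were called (2 higher after length and GC correction). Sums were also higher with APAP for T cell (36.9 to 50.7 against 23.1 CPM, 2 of 4 markers rose), NK cell (13.8 to 18.5 against 9.01 CPM, 1 of 3 rose) and plasma cell markers (18.7 to 31.3 against 6.05 CPM, 2 of 3 rose). Of 3 plasmacytoid dendritic cell markers 2 rose: Ccr9 went from 1.51 CPM to 7.68 ± 0.783 CPM, and Siglech from 0 counts to 18.2 ± 5.15 CPM. The third, Bst2, which many cells express, fell from 288 to 121 ± 10.8 CPM and carried the sum of that list down. Of 3 stellate cell markers, Dcn and Lrat fell and Col1a1 rose, and the call of Dcn was lost after length and GC correction. Of 3 cholangiocyte markers 2 rose (1 after that correction), with sums of 1.67 to 2.76 CPM against 1.16 CPM. After the correction 3 hepatocyte and 4 endothelial markers were lower. Markers then higher were 3 of B cells, 4 of T cells, 2 of NK cells and 2 of plasma cells. Over all 18715 genes tested 3916 were then higher and 2195 lower. The part of these cells in the results below was not tested. In bulk RNA, fewer cells of a type and less RNA per cell cannot be told apart.

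Promoter sequences were at hand for 31 of the 41 genes (RefSeq, GRCm38.p6, 250 bases before to 50 bases after the start). The 7 letters TCACGTG, in either strand's reading, are the middle of the MiT element, and they were found in 8 of the 31 members (25.8%) and in 1160 of all 27025 genes in that set (4.29%). The shorter core CACGTG, which lies inside it, was found in the same number of members and in 8.09% of all genes. The 8 members were Atp6v0b, Atp6v0d1, Atp6v0e, Atp6v1a, Clcn4, Clcn6, Clcn7 and Slc9a3. Of these, 3 rose, 2 fell, 2 did not pass the test and 1 had too few reads, so carrying the letters did not go with a single direction. Of the 23 members without them, 4 rose, 5 fell, 9 did not pass the test and 5 had too few reads. Over all genes tested 25.4% were higher and 18.9% lower. After length and GC correction Atp6v1a was still called higher and Atp6v0e lower, while the calls of Atp6v0b, Clcn6 and Clcn7 were lost. Atp6v0d2 was not among the 31 members. 4 windows are shown, with the matched letters in capitals: a pump gene and an exchanger gene that rose, a pump gene that fell, and the member with the largest rise, in which the letters do not occur. They are written 5′ to 3′ along the gene's strand. The windows lie at chr16:44139210-44139509 (minus strand, Atp6v1a), chr17:25133141-25133440 (plus strand, Clcn7), chr17:26676146-26676445 (plus strand, Atp6v0e) and chrX:20291778-20292077 (minus strand, Slc9a7).
Atp6v1a: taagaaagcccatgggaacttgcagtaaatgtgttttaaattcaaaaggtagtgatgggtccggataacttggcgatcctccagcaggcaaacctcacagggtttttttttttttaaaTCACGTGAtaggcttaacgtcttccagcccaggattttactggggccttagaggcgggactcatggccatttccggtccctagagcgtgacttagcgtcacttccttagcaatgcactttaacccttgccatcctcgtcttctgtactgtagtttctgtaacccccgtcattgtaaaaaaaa
Clcn7: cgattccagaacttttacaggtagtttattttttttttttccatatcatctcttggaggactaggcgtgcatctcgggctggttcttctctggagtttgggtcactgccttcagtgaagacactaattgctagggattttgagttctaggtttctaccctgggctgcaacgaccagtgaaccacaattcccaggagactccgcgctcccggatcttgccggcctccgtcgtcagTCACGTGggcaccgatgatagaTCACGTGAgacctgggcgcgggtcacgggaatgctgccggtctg
Atp6v0e: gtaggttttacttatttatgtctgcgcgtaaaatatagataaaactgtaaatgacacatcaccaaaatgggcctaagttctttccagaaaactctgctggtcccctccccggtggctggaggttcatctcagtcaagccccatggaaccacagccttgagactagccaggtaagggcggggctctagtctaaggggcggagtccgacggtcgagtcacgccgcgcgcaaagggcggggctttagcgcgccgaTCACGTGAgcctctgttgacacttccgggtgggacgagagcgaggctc
Slc9a7: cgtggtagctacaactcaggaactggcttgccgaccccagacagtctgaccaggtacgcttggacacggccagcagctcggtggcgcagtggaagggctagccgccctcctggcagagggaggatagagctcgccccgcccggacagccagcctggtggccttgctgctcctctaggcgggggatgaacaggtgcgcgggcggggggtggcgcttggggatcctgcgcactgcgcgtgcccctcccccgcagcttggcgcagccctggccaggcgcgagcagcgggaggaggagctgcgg
The match is centred 128 bases upstream of the start in Atp6v1a, within 12 bases of the start on either side in Clcn7, which has 2 matches, and 6 bases downstream of it in Atp6v0e.

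Of the 41 members, 33 had enough reads to be tested, and 8 had 0 to 8 counts in any library. The filter can keep a gene that has reads in 1 group alone, but the lowest count of a member tested was 16, that of Slc9a7 in the control. In edgeR's quasi-likelihood test with Benjamini-Hochberg adjustment at 0.05, 9 members rose and 8 fell in APAP Cxcr4+ macrophages. These 17 calls are 51.5% of the members tested, against 44.3% of all 18715 genes tested (25.4% higher and 18.9% lower), so the share called is near the background. Called changes of at least 2-fold numbered 2 higher and 3 lower, against 15.2% and 7.38% of all genes. The control lay below all APAP libraries for 15 members, above all of them for 14 and within their range for 4, and over all genes it lay outside that range for 84.8%. The median log2 fold change was 0.04 over the members tested and 0.08 over all genes. Together the members held 0.353% to 0.393% of all unscaled counts with APAP, against 0.377% in the control. On the TMM-scaled levels their sum was 3775, 3419 and 3465 CPM with APAP and 4195 CPM in the control, which lay above every APAP library. Single subunits and paralogues moved in both directions.

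**Figure D1:**
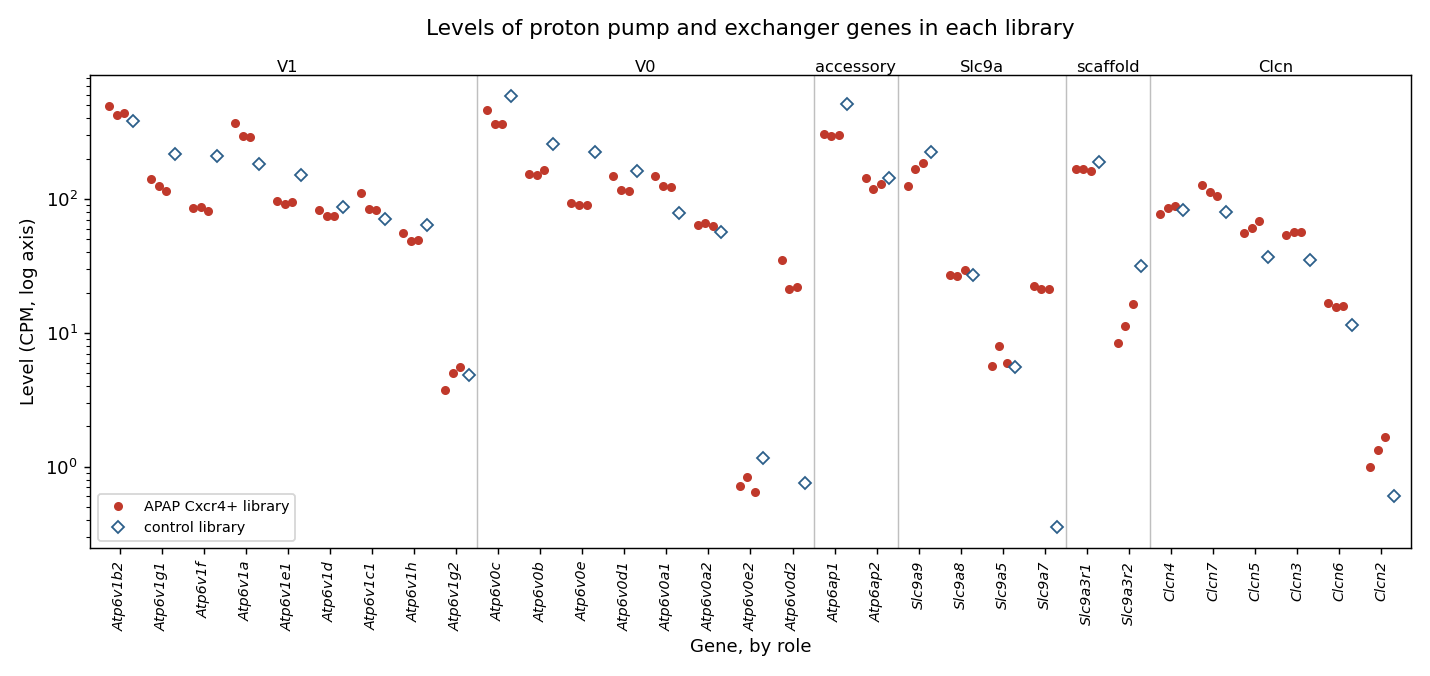
Level of 31 members tested, in CPM on a log axis, with one point per library and the genes ordered by role. Atp6v0d2 and Slc9a7 are the 2 genes whose control point (0.757 and 0.356 CPM) lies far below the APAP points, and for the other genes the 4 points lie closer together.

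The catalytic V1 sector is built on a ring of A and B subunits, which bind and split ATP. Atp6v1a, the A subunit, was at 368, 295 and 291 CPM in the APAP libraries, against 184 CPM in the control. All 3 APAP libraries lay above the control, library 1 highest, and the gene rose by 0.79 on the log2 scale (SE 0.16, adjusted p = 0.0129). Its ring partner Atp6v1b2, the B subunit of most tissues, was at 492, 423 and 437 CPM against 384 CPM, a log2 difference of 0.23 that did not pass the test (adjusted p = 0.166). The kidney-type B subunit Atp6v1b1 had no counts in any library.

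Other V1 subunits form the stalks that join the ring to the membrane. Atp6v1f, a subunit of the central rotor, was at 85.5, 87.0 and 81.6 CPM in the APAP libraries, against 211 CPM in the control. Its APAP values were close to each other and all far below the control, and it fell by 1.32 on the log2 scale (SE 0.08, adjusted p = 0.000933). Atp6v1g1, of the outer stalks, was at 142, 125 and 115 CPM against 215 CPM (log2 fold change -0.76, SE 0.13, adjusted p = 0.00679), and its partner Atp6v1e1 at 95.9, 91.4 and 95.5 CPM against 152 CPM (-0.69, SE 0.08, adjusted p = 0.00254). Both fell, with the 1 control library above every APAP library, and both calls were lost after correction for transcript length and GC content (-0.15 each). The control lay outside the APAP range for 84.8% of all genes. Atp6v1d of the rotor (77.3 ± 4.39 CPM, SD, n = 3, against 87.0 CPM) and Atp6v1h, a subunit that controls the coupling of the sectors (51.3 ± 4.15 against 64.1 CPM), did not pass the test (log2 differences -0.17 and -0.32). Atp6v1c1, the subunit whose contact is lost when the pump disassembles, was at 110.3, 83.9 and 82.7 CPM against 70.9 CPM (0.38, adjusted p = 0.144; 0.64, adjusted p = 0.0418, after that correction). Of 9 V1 members tested, 1 rose and 3 fell, with a median of -0.17. Over all genes tested 25.4% were higher and 18.9% lower, with a median of 0.08. Atp6v1g2, a form known from neurons, was at 4.78 ± 0.933 CPM against 4.87 CPM, and Atp6v1c2 and Atp6v1g3 had 0 to 2 counts.

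In the V0 sector, the proton-carrying ring is made of Atp6v0c and Atp6v0b. Atp6v0c was at 459.6, 363 and 366 CPM in the APAP libraries, against 584 CPM in the control. It fell by 0.56 on the log2 scale (SE 0.16, adjusted p = 0.0325), and the call was lost without APAP library 2 (adjusted p = 0.11). Atp6v0c has a processed copy, Atp6v0c-ps2, with 2840 to 3312 counts in the APAP libraries with 3695 in the control. Reads could be split between the copies, and adding the pseudogene reads left the change at -0.56 (adjusted p = 0.0334). Atp6v0b was at 153, 152 and 164 CPM against 258 CPM and fell by 0.72 (SE 0.09, adjusted p = 0.00268). The calls of both ring genes were lost after correction for transcript length and GC content (Atp6v0c 0.05, Atp6v0b -0.04). Atp6v0e, a small membrane subunit, was at 93.0, 90.0 and 89.4 CPM against 222 CPM. It fell by 1.29 (SE 0.08, adjusted p = 0.000933), with the APAP libraries close to each other and all below the control. Its paralogue Atp6v0e2 was at 0.734 ± 0.0959 CPM against 1.16 CPM and did not pass the test (adjusted p = 0.183).

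The d subunit couples the rotor to the ring, and its 2 forms did not move alike. Atp6v0d2, the form known from osteoclasts and from macrophages, was at 35.1, 21.1 and 21.9 CPM in the APAP libraries, against 0.757 CPM in the control (1765, 1132 and 1285 counts against 34). All APAP libraries were far above the control, and library 1 was 1.67 times as high as library 2. The mean of 26.0 ± 7.88 CPM (SD, n = 3) was 34.4-fold above the control, or 24.6-fold to 49.7-fold over the 95% Poisson interval of the control count, which covers counting error only. The log2 fold change was 5.10 (SE 0.47, adjusted p = 0.00142), in place 1565 of the 18715 genes tested when ordered from the largest rise. The ubiquitous form Atp6v0d1 was at 148, 116 and 114 CPM against 161 CPM, a log2 difference of -0.36 that did not pass the test (adjusted p = 0.122; 0.00122 without APAP library 1). Per kilobase of transcript, Atp6v0d2 made up 0.30% of the d subunit reads in the control and 13.2%, 10.5% and 11.004% in the APAP libraries, so Atp6v0d1 was still the main form in each of them.

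The a subunit directs the pump to its membrane. Atp6v0a1 was at 148, 125 and 122 CPM in the APAP libraries, against 78.2 CPM in the control, and rose by 0.75 (SE 0.14, adjusted p = 0.0088). Atp6v0a2, the Golgi and early endosome form, was at 63.7, 66.0 and 63.0 CPM against 56.9 CPM (0.17, adjusted p = 0.156), and the kidney form Atp6v0a4 had 0 to 8 counts. The lysosome and osteoclast form carries the symbol Tcirg1 and so falls outside the rule. It was at 482, 460.1 and 511 CPM against 286 CPM and rose by 0.76 (SE 0.11, adjusted p = 0.00414). Per kilobase, Tcirg1 held 75.7% of the a subunit reads in the control and 76.5% to 79.9% in the APAP libraries, and Atp6v0a2 held 8.57% and 5.60% to 6.34%. The main a subunit was thus the same in every library. Of 8 V0 members tested, 2 rose and 3 fell, with a median of -0.46. Over all genes tested 25.4% were higher and 18.9% lower, with a median of 0.08.

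Of the 2 accessory subunits, Atp6ap1, which helps the V0 sector to assemble in the endoplasmic reticulum, was at 307, 295 and 300.4 CPM in the APAP libraries, against 511 CPM in the control. It fell by 0.77 (SE 0.09, adjusted p = 0.00221). Atp6ap2, also known as the prorenin receptor, was at 144, 118 and 128 CPM against 143 CPM (-0.14, adjusted p = 0.408), with the control inside the APAP range. Over pump genes as a whole, 3 of 19 tested rose and 7 fell, beside 25.4% higher and 18.9% lower of all genes. After length and GC correction the tally was 4 higher and 3 lower, beside 3916 higher and 2195 lower of all 18715 genes tested. APAP library 1 was the highest of the APAP libraries for 12 of the 17 V1 and V0 members tested (70.6%), against 36.9% of all genes.

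**Figure D2:**
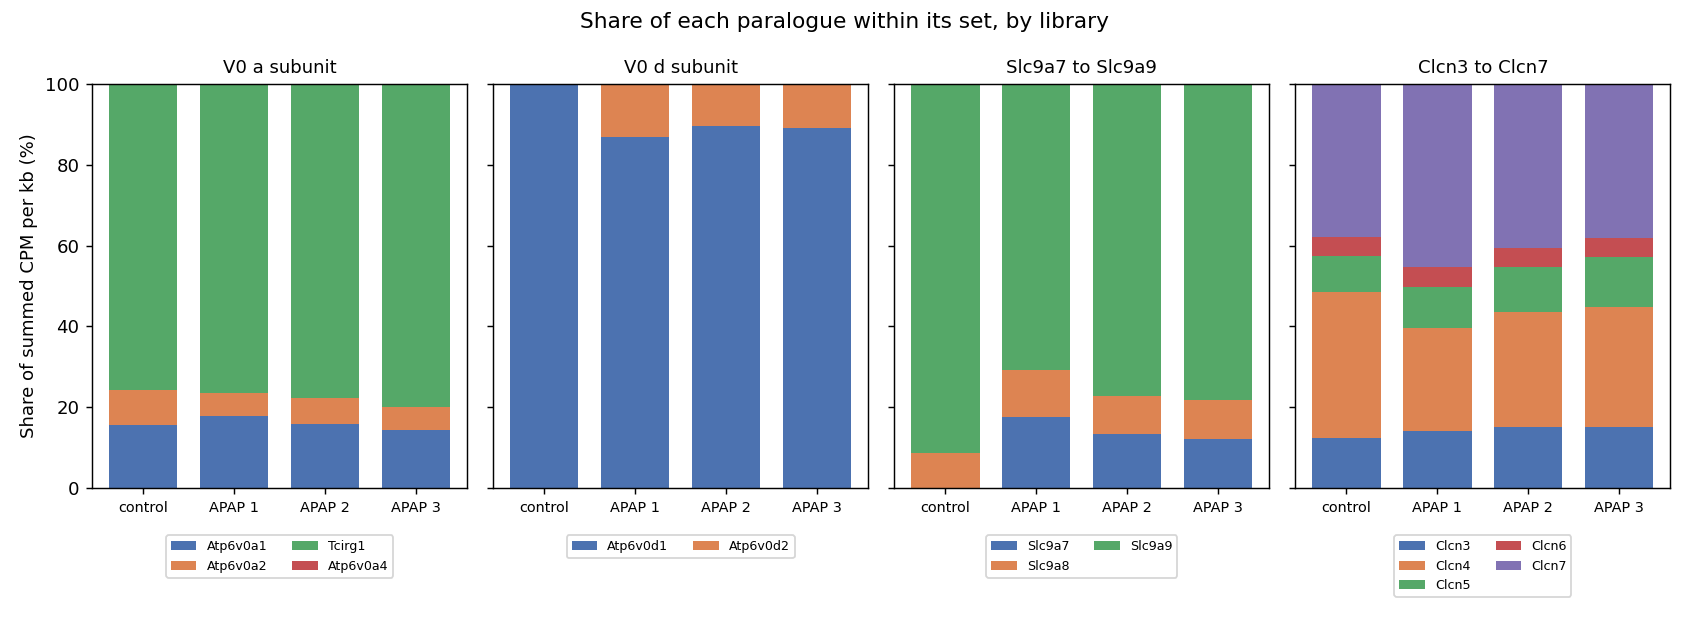
Share of each paralogue in its set, in percent of CPM per kilobase of transcript, for the 4 libraries. Atp6v0d2 and Slc9a7 each go from under 1% in the control to between 10.5% and 17.6% in the APAP libraries, while Tcirg1, Atp6v0d1 and Slc9a9 stay the main forms.

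Among the exchangers that work inside the cell, Slc9a7, of the trans-Golgi network and recycling endosomes, changed most. It was at 22.5, 21.2 and 21.3 CPM in the APAP libraries, against 0.356 CPM in the control (1132, 1137 and 1250 counts against 16). The mean of 21.7 ± 0.743 CPM was 60.9-fold above the control, or 37.5-fold to 107-fold over the Poisson interval of the control count. The 3 APAP libraries were nearly equal and the log2 fold change was 5.92 (SE 0.21, adjusted p = 0.000841), in place 1291 of the 18715 genes tested when ordered from the largest rise. Slc9a8, a Golgi exchanger, was at 26.9, 26.5 and 29.4 CPM against 26.9 CPM.

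Slc9a9, of late endosomes, was the most abundant Slc9a exchanger per kilobase. It was at 125, 168 and 187 CPM in the APAP libraries, against 224 CPM in the control. All 3 lay below the control, but they differed among themselves by 1.49 times, where the median gene of at least 10 CPM differed by 1.13 times. The log2 difference of -0.48 missed the threshold (adjusted p = 0.112), and passed it without APAP library 1 (-0.33, adjusted p = 0.0159) or library 3 (-0.59, adjusted p = 0.0218). Per kilobase, Slc9a9 held 91.4% of the reads of Slc9a7, Slc9a8 and Slc9a9 in the control and 70.8%, 77.2% and 78.2% in the APAP libraries, while Slc9a7 went from 0.20% to 17.6%, 13.4% and 12.3%.

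Slc9a5, an exchanger known from neurons, was at 6.52 ± 1.22 CPM in the APAP libraries, against 5.54 CPM in the control, and the epithelial exchangers Slc9a2, Slc9a3 and Slc9a4 had 0 to 8 counts. The scaffold Slc9a3r2, which binds exchangers and other membrane proteins through PDZ domains, was at 8.42, 11.3 and 16.5 CPM against 31.4 CPM. It fell by 1.38 (SE 0.33, adjusted p = 0.0195; 0.0649 without APAP library 2), and its highest and lowest APAP libraries differed by 1.96 times. This scaffold is also known from endothelial cells, whose summed markers were at 809 to 1205 CPM with APAP and 1844 CPM in the control; their part in this result was not tested. Slc9a3r1 was at 167, 168 and 161 CPM against 189.8 CPM (-0.20, adjusted p = 0.104). Of the 2 scaffolds, 1 fell, where 18.9% of all genes tested were lower.

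In the Clcn family, 4 of 6 members tested rose and 0 fell, with a median of 0.59, where 25.4% of all genes were higher and 18.9% lower. None of the 4 calls was kept after correction for transcript length and GC content (0 of 6 higher). Clcn7, the lysosomal exchanger that is a partner of Ostm1, was at 127, 113 and 106 CPM in the APAP libraries, against 79.6 CPM in the control. It rose by 0.53 (SE 0.13, adjusted p = 0.0191; 0.0683 without APAP library 2). Clcn3, of endosomes, was at 53.5, 56.1 and 56.9 CPM against 35.2 CPM (0.66, SE 0.10, adjusted p = 0.00438). Clcn5, the early endosome exchanger, was at 56.0, 60.5 and 69.0 CPM against 36.9 CPM (0.74, SE 0.14, adjusted p = 0.00956). For each of these 3 genes every APAP library lay above the control. Clcn6, of late endosomes, rose from 11.5 CPM to 16.1 ± 0.608 CPM (adjusted p = 0.0302; 0.089 without APAP library 2). Clcn4 was at 77.4, 86.1 and 89.3 CPM against 82.2 CPM, with the control inside the APAP range. Per kilobase, Clcn7 held 38.0% of the reads of Clcn3 to Clcn7 in the control and 38.1% to 45.3% with APAP, and Clcn4 went from 36.1% to between 25.5% and 29.5%. The plasma membrane channel Clcn2 was at 0.995, 1.32 and 1.67 CPM against 0.601 CPM (1.15, adjusted p = 0.0819), and the muscle channel Clcn1 had 0 to 8 counts.

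**Figure D3:**
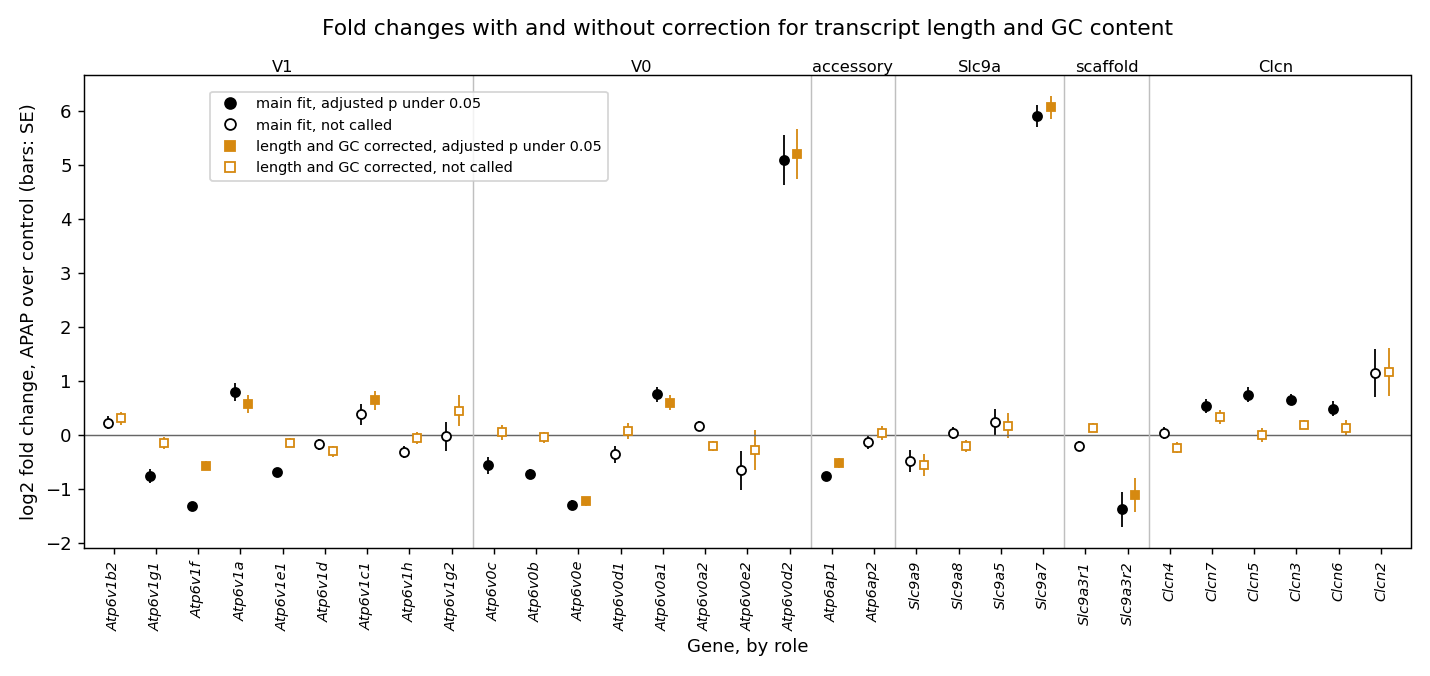
Log2 fold change of 31 members tested, APAP over control, with SE as bars, before (circles) and after (squares) correction for transcript length and GC content; filled symbols passed the test. The rises of Atp6v0d2 and Slc9a7 keep their size after correction, while the 4 Clcn rises and 4 falls among pump subunits no longer pass the test.

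Of the pump members called, Atp6v1a (4234 nt) and Atp6v0a1 (4008 nt), which rose, have the longest transcripts, and most of those that fell have short ones. A relation of this kind held over the whole table. Over 9280 genes with an average log2 CPM above 3, Spearman's correlation of transcript length with the log2 fold change was 0.62. The median change went from -0.72 in the shortest of 10 equal groups of these genes (median length 828 nt) to 0.79 in the longest (median length 8225 nt). Over the 33 members tested the correlation was 0.64. These are descriptions across genes of the same 4 libraries. The genes are not independent replicates, and what lies behind the relation was not tested. Atp6v1f, at 806 nt, Atp6v0b, at 1000 nt, and Atp6v1g1, at 1135 nt, stood at the short end, and Clcn5, at 8390 nt, and Clcn3, at 5684 nt, at the long end.

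**Figure D4:**
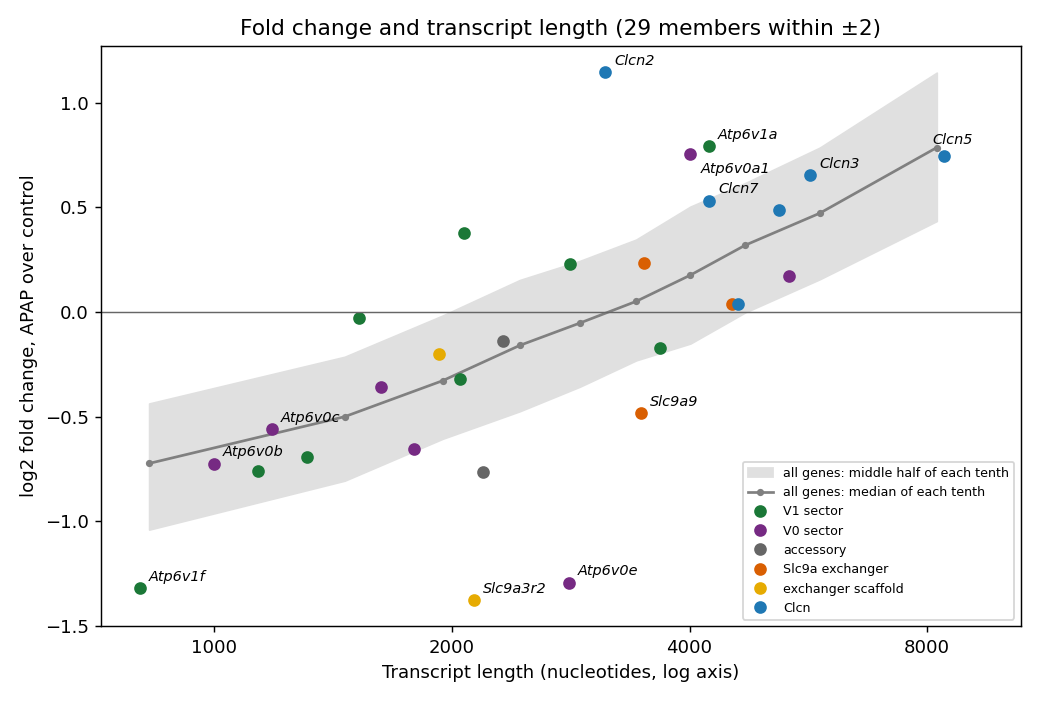
Log2 fold change against transcript length (nt, log axis) for 29 members within ±2, with the median and middle range of all genes in 10 equal groups by length in grey. Many members lie near the grey line. Atp6v0e, Slc9a3r2, Atp6v1f, Atp6ap1 and Slc9a9 are among those below it, and Clcn2, Atp6v1c1, Atp6v0a1 and Atp6v1a among those above it.

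After the trend over length and GC content was removed, 9 of 33 members passed the test, 8 of which had been called in the same direction before. Over all 18715 genes tested, 3916 were then higher and 2195 lower. Atp6v0d2 (5.22, adjusted p = 0.00213), Slc9a7 (6.07, adjusted p = 0.000637), Atp6v1a (0.57, adjusted p = 0.0474) and Atp6v0a1 (0.60, adjusted p = 0.0254) were still higher, and Atp6v1c1 was added (0.64, adjusted p = 0.0418). Atp6v0e (-1.23, adjusted p = 0.0013), Atp6v1f (-0.57, adjusted p = 0.00672), Atp6ap1 (-0.52, adjusted p = 0.00977) and Slc9a3r2 (-1.11, adjusted p = 0.0443) were still lower. The calls of Atp6v0b (-0.04), Atp6v0c (0.05), Atp6v1e1 (-0.15) and Atp6v1g1 (-0.15) were lost. All 4 Clcn calls were lost as well, with Clcn7 at 0.34 (adjusted p = 0.0877), Clcn3 at 0.19, Clcn6 at 0.14 and Clcn5 at -0.01.

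Genes that act with the pump and the exchangers were taken from lists made for these data, beside the same background of 25.4% higher and 18.9% lower. After length and GC correction that background was 3916 genes higher and 2195 lower of 18715 tested. Of 16 tested genes for pump assembly and regulation, 6 rose and 4 fell (4 and 2 after length and GC correction), with a median of 0.32 where all genes had 0.08. Dmxl1 and Dmxl2, the rabconnectin proteins that help V1 and V0 to join, rose by 1.68 and 1.78 (adjusted p = 0.00091 and 0.00147; 0.66 and 0.86 after correction, both still called). Oxr1, of a family that binds V1, rose by 0.64 (adjusted p = 0.0036). The 2 genes of this list lower after correction were Vma21 (-0.76, and -0.45 and also lower before it) and Ncoa7 (-0.80, not called before it). Of 12 tested endolysosomal channels and partners, 4 rose and 2 fell (median 0.23; 3 and 2 after correction). The proton channel Hvcn1 was at 14.7, 15.6 and 12.6 CPM in the APAP libraries, against 1.62 CPM in the control (3.14, adjusted p = 0.00107). This channel is also known from B cells, whose summed markers were higher in the APAP libraries, and their part was not tested. The endosomal cation channel Tpcn1 rose by 1.78 (adjusted p = 0.000933) and the lysosomal calcium channel Mcoln1 by 0.44 (adjusted p = 0.0188), while the ATP-gated channel P2rx4 fell by 0.47 (adjusted p = 0.0104). Ostm1, the partner of Clcn7, was at 70.9 ± 3.997 CPM against 69.7 CPM.

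Of 9 tested exchanger cofactors and carbonic anhydrases, 4 rose and 1 fell (median 0.68), and 4 were higher and 0 lower after length and GC correction. The exchanger cofactor Chp1 rose by 0.35 (adjusted p = 0.0307), and its paralogue Chp2 went from 339 CPM to 192 ± 27.3 CPM (-0.82, adjusted p = 0.0105; -0.32, adjusted p = 0.208, after length and GC correction). The carbonic anhydrase Car13 rose by 0.68 (adjusted p = 0.0302). The bicarbonate carrier Slc4a7 rose by 0.96 (adjusted p = 0.00276; 0.22 and not called after correction). Among the MiT factors, Mitf was at 57.7, 64.2 and 66.6 CPM against 43.0 CPM and rose by 0.55 (adjusted p = 0.0137; 0.21, adjusted p = 0.172, after correction). Tfeb was at 72.7 ± 3.98 CPM against 58.6 CPM (0.31, adjusted p = 0.0523; 0.51, adjusted p = 0.0147, after correction), and Tfe3 at 168 ± 4.104 CPM against 163 CPM (0.04). Over that list, with the nutrient sensors of the lysosome surface, 8 of 18 tested rose and 5 fell (median 0.19), and after length and GC correction 5 were higher and 0 lower. Gpnmb, a glycoprotein of lysosomes and a target of the MiT factors, was at 4908, 2671 and 2195 CPM against 1.60 CPM (10.99, adjusted p = 0.00107; 10.88 after correction, still called). Lamtor2 and Lamtor5, of the Ragulator complex that holds the pump and mTORC1 together, fell by 0.98 and 0.82 (-0.18 and -0.10, both not called, after correction), and Fnip1 rose by 1.12 (0.58 after correction, still called).

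Atp6v0d2 and Tcirg1 are both used by osteoclasts, so other genes known from that cell were looked at beside them. Of 9 listed genes 6 had enough reads, and 1 rose and 1 fell (median 0.57; 2 and 0 after length and GC correction). Nfatc1, the transcription factor of osteoclast formation, rose by 0.79 (adjusted p = 0.00631) and the acid phosphatase Acp5 fell by 0.90 (adjusted p = 0.0151; -0.39, not called, after length and GC correction). The collagen-cleaving protease Ctsk was at 6.15, 2.68 and 1.93 CPM against 0.690 CPM (2.37, adjusted p = 0.0546; 2.83, adjusted p = 0.0383, after correction), and the receptor Tnfrsf11a did not pass the test (0.36, adjusted p = 0.0955).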

How the data were processed

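Per the labels, Tecan universal plus mRNA-seq was the library kit. The authors deposited raw read counts per Ensembl gene as whole numbers, and the submitters' processing notes name HISAT2, Subread and mm39. The sources used here do not give versions, annotation, strand setting or the handling of shared reads. Since no replicate number stands in the APAP column names, libraries 1 to 3 follow column order. Symbols were matched for 28926 of 29247 gene IDs; the 321 unmatched IDs held 0.141% to 0.562% of each library.

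Counts were tested with edgeR 4.0.16 (R 4.3.3): filterByExpr (minimum count 10, minimum total 15), TMM factors (1.04, 1.03, 1.03 and, for the control, 0.90), and the quasi-likelihood test without covariates, adjusted over all 18715 genes and called at 0.05. With 1 control library the spread came from the 3 APAP libraries (2 residual and 3.80 prior degrees of freedom), on the assumption that the control varies as they do. A count of 3 corresponds to 0.0512 to 0.0668 CPM. The script was tested on simulated data. Transcript length and GC content came from the longest coding transcript in GENCODE vM21, another build than mm39, and the trend correction used mgcv 1.9.3. Values of 2 members are not reported here, though counts over all members include them; every other member may be named. Values in all libraries are given for members called with a change of at least 2-fold. They are also given for the 4 most abundant of each role and their paralogues. Up to 4 genes of other lists with the smallest p are named, with Tcirg1, Ostm1, Mitf, Tfeb and Tfe3 always. Vma21 and Ncoa7 were named in addition, as the genes of their list lower after length and GC correction. The members, the lists and the rule were chosen with earlier results of these data known. Alternatives were DESeq2 1.42.0 size factors and Wald test, upper-quartile factors, limma-voom (limma 3.58.1), other count filters, glmTreat, leaving out each APAP library, the length and GC correction, and, chosen after seeing the data, adding pseudogene reads to Atp6v0c.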

Additional observations from a re-analysis of the deposited data

How the results depend on the processing

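Adjusted p under 0.05 was kept or missed alike for all 33 members with DESeq2 size factors, the DESeq2 Wald test, limma-voom and the added Atp6v0c pseudogene reads. Leaving out each APAP library in turn gave 12 to 25 members called, with 6 to 13 lower, 0 to 3 Slc9a members lower, 1 to 3 higher and 2 to 5 Clcn members higher; without library 2, Atp6v0c, Clcn6, Clcn7 and Slc9a3r2 were among those lost. Over all genes the same settings gave 2979 to 5195 higher and 2022 to 4185 lower. Tested against a 2-fold change (glmTreat), 1099 genes were higher and 280 lower; 2 members were higher (1 pump gene, 1 Slc9a, 0 Clcn) and 2 lower (2 pump genes, 0 Slc9a). A filter of 5 CPM left 10959 genes to test, of which 3097 were higher and 2956 lower. With no count filter the members' median was 0.26, that of all genes was 0.53, and Atp6v1g2 was at 0.0033; leaving out 1 APAP library it ranged from -0.14 to 0.12. With the length and GC correction, 3916 genes were higher and 2195 lower, and 5 members were higher (1 Slc9a, 0 Clcn) and 4 lower (3 pump genes). That correction changed the sign of Atp6ap2 (0.036), Atp6v0a2 (-0.21), Atp6v0c (0.048), Atp6v0d1 (0.076), Atp6v1g2 (0.45), Clcn4 (-0.24), Clcn5 (-0.0086), Slc9a3r1 (0.14) and Slc9a8 (-0.20). Atp6v0d2, Slc9a7, Atp6v0e and Atp6v1f were called in the same direction under all 12 alternatives; the causes of the other changes were not tested. No paired analysis was possible because there is only 1 control library and the columns carry no replicate number. The single control library cannot be left out, so its own deviation cannot be measured. Genes with overlapping exons on the other strand, such as Clcn2 and Atp6v1g2, could share reads, since no source used here states the strand setting of the counting.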
